A study of Mus musculus with 12 samples.

Results

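Mouse mesenchymal stem cells from adipose tissue were followed as 3D spheroids from 0 h to 24 h of culture. The comparison uses the 3 spheroid libraries of 0 h and the 3 of 24 h, which are 6 of the 12 libraries of the study. The other 6 libraries are the same kind of cell kept as 2D single cells, 3 at 0 h and 3 at 24 h, and they serve here only to show where the spheroids differed. All 4 groups were kept in DMEM with fetal bovine serum and antibiotics, and no genotype, strain, donor age or added agent is given in the labels. The labels call the material a cell line of adipose-derived stem cells, and do not say how long the aggregates had been forming at 0 h or whether libraries of one group came from separate cultures. The p-values therefore measure the spread among these particular libraries only, and that spread may be technical.

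Mesenchymal stem cells are fibroblast-like stromal cells that lay down collagen, remodel the surrounding matrix and secrete growth factors and chemokines. Cells packed into an aggregate lose the stiff surface that sustains actin stress fibres, and oxygen reaches the inner cells only by diffusion. Low oxygen stabilises the hypoxia-inducible factors (HIF), which drive genes of glycolysis, angiogenesis and the prolyl hydroxylases that in turn mark HIF for destruction. Lists of the known genes of these and related programmes, drawn up with earlier results of these data known, are described in turn.

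The deposited tables identify genes by Ensembl ID alone. Of 56748 IDs, 14338 carried enough reads to be tested, and 829 IDs were named, of which 757 were tested. The names were recalled from general knowledge of these well-known genes and were not read from the files, and they could be checked only in part. Levels are given as CPM, read counts scaled to a common library size, after the TMM correction for library composition. A change is the log2 ratio of 24 h over 0 h in edgeR's quasi-likelihood fit, given with its standard error (SE), and it counts as called where the p adjusted by Benjamini-Hochberg was under 0.05. A gene is said to have risen or fallen only where it was called, and list counts are over the members tested, since the other 72 named genes had too few reads.

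The spheroid libraries held 10182600 to 13522300 assigned reads at 0 h and 11594400 to 17109600 at 24 h. Log2 CPM correlated at 0.979 to 0.98 (Pearson's r across genes) among the 0 h libraries, at 0.977 to 0.984 among the 24 h libraries and at 0.903 to 0.918 between the times. The first principal component separated the times and held 74.1% of the variance. Replicate 1 of 24 h was the deepest library and stood somewhat apart from the other two of its group, with Col1a1 at 22729 CPM against 15175 and 12618 CPM, so results that rest on it are given without it too. Stromal cell markers were present: Pdgfra was at 359, 354 and 349 CPM at 0 h and 172, 186 and 193 CPM at 24 h, and Thy1 at 130.4, 157 and 124 CPM at 0 h and 105, 124 and 128 CPM at 24 h. Nt5e, the gene of the stem cell marker CD73, was at 1.09 CPM or less in every spheroid library and was too low to test. Ptprc, Adgre1, C1qa, C1qb and C1qc of leukocytes, Cd3e of T cells, Sox10 of Schwann cells, Cldn5 and Tie1 of endothelium, Lep and Cidec of fat cells, and Hba-a1 of red cells were listed at 0 in all 6 spheroid libraries. The 8 endothelial markers summed to 9.24 to 10.4 CPM at 0 h and to 4.79 to 4.97 CPM at 24 h. The 4 Schwann cell markers summed to 2.14 to 3.2 CPM and then to 2.61 to 4.16 CPM. Lymphocyte, epithelial and mesothelial, and mature adipocyte markers each summed to at most 1.06 CPM in any spheroid library. The 5 pericyte markers summed to 44.1 to 50.3 CPM and then to 46.9 to 61.5 CPM. Of 4 pericyte markers tested, Cspg4 rose and Notch3 fell (0 to 1 fell over the alternatives). The 11 leukocyte and macrophage markers summed to 56.0 to 65.3 CPM and then to 29.3 to 32.9 CPM, most of it Csf1r, with 52.2 to 59.3 CPM at 0 h and 23.4 to 24.1 CPM at 24 h. Their part in the results was not tested.

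Across the 24 h, 6954 of 14338 genes were called (48.5%), 3413 of them higher (23.8%) and 3541 lower (24.7%). The balance turned with the scaling: library totals alone called 3924 genes higher and 3119 lower, with the median change of all genes at 0.077, and limma on log2(TPM + 1) called 3498 higher and 2865 lower. The falls were the larger changes: 1738 genes fell and 1222 rose by at least 2-fold, and 662 fell and 300 rose by at least 4-fold, while the median change of all tested genes was -0.004. With calls this common, the share of called members in a list has to be read against 23.8% higher and 24.7% lower. Among the 757 named genes tested, 73.6% were called, so the named genes as a whole were called more often than the background, and their lists are set beside one another as well as beside all genes. In bulk RNA, fewer cells that express a gene and less RNA per cell cannot be told apart.

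**Figure D1:**
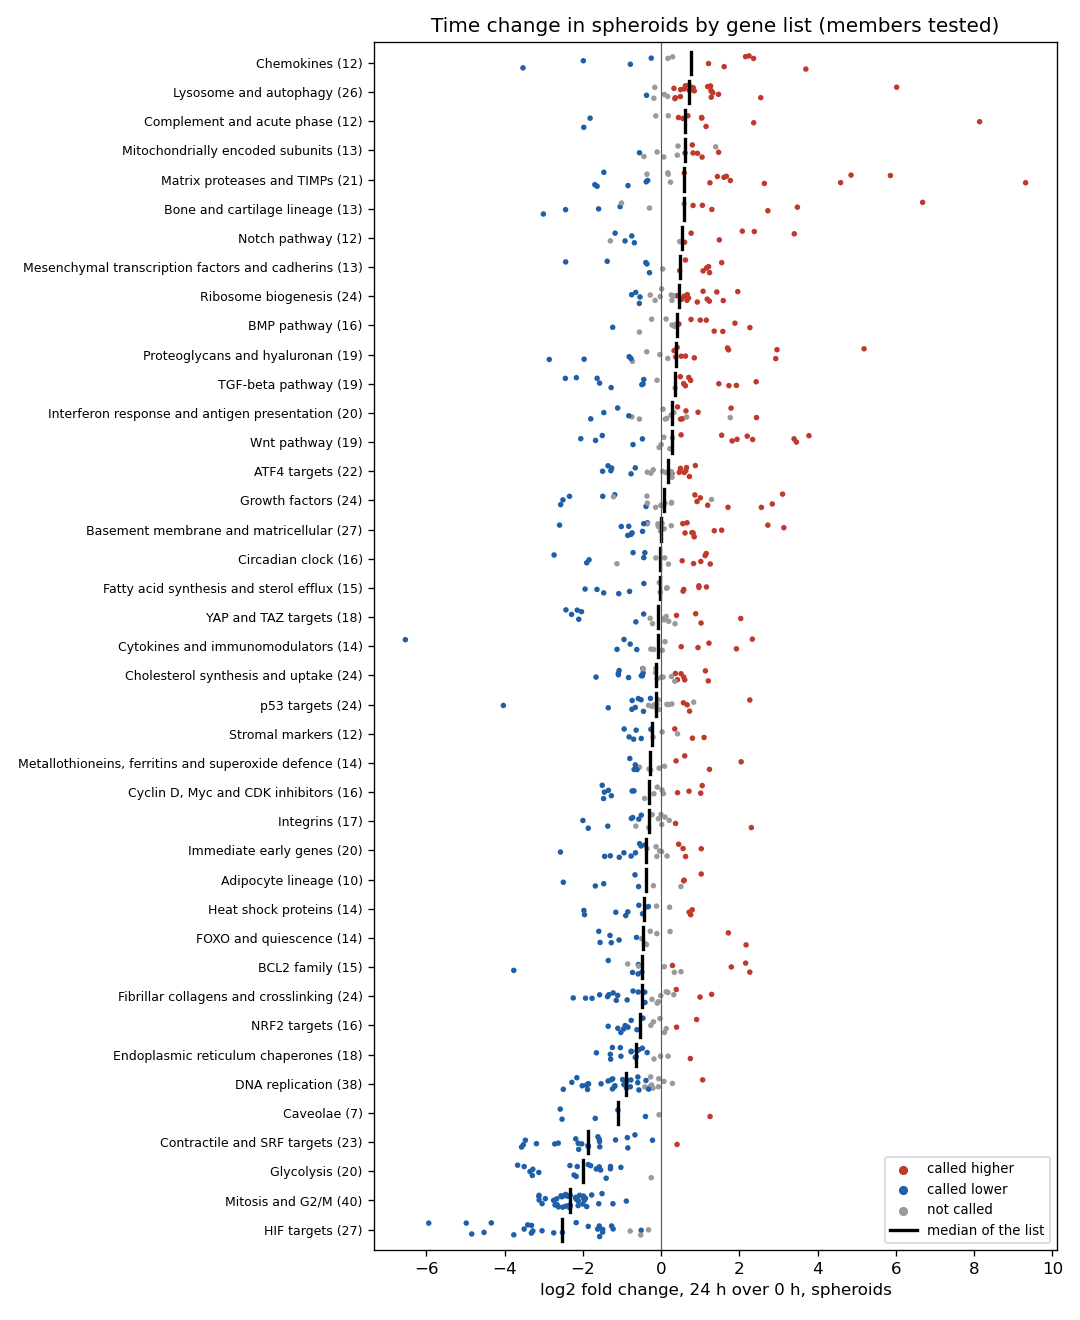
Change from 0 h to 24 h in spheroids for the tested members of each gene list, as log2 fold change on the horizontal axis; each point is 1 gene, red if called higher, blue if called lower and grey if not called, the black bars are list medians, and the number tested is in brackets. HIF targets, mitosis genes, glycolysis genes and contractile genes have the lowest medians (-2.52, -2.33, -2.0 and -1.86), and lysosome genes lie almost entirely to the right of 0.

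The genes switched on by HIF fell further than those of any other list in the plot of changes by list. Of the 27 HIF targets on the list, 24 fell and none rose, 23 of them by at least 2-fold, with a median change of -2.52. Angptl4, which HIF often drives, was listed with the growth factors and rose. The summed level of the 27 dropped from 15600 to 16500 CPM at 0 h to 3350 to 3660 CPM at 24 h. The oxygen sensors were among the steepest. Egln3, a prolyl hydroxylase that marks HIF for degradation, was at 137, 149 and 126 CPM at 0 h and 3.1, 2.12 and 1.27 CPM at 24 h (log2 change -5.94, SE 0.23, edgeR adjusted p = 3.8e-12). Its relative Egln1 was at 522, 556 and 510.5 CPM at 0 h and 28.5, 19.3 and 20.8 CPM at 24 h, a 23-fold fall (log2 change -4.53, SE 0.15, edgeR adjusted p = 1.5e-12). In both genes every 24 h library lay far below every 0 h library.

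The secreted and mitochondrial targets fell alongside. Adm, which encodes the vasodilator peptide adrenomedullin, went from 120.2, 121 and 113 CPM to 2.89, 4 and 4.49 CPM (log2 change -4.98, SE 0.15, edgeR adjusted p = 4.5e-13). Bnip3, a receptor that tags mitochondria for removal, was at 1297, 1268 and 1386 CPM at 0 h and 93.1, 100.1 and 97.6 CPM at 24 h, which is 13.6-fold lower (log2 change -3.77, SE 0.11, edgeR adjusted p = 4.5e-13). Ankrd37, a small ankyrin-repeat protein gene, went from 79.4, 75.3 and 90.3 CPM to 1.85, 3.67 and 3.21 CPM (log2 change -4.84, SE 0.32, edgeR adjusted p = 2.5e-09). The ranges at the 2 times did not overlap for any of these. Stc2, which encodes the secreted glycoprotein stanniocalcin 2, was at 52.3, 47.4 and 47.8 CPM at 0 h and 2.4, 3.02 and 1.87 CPM at 24 h (log2 change -4.34, SE 0.21, edgeR adjusted p = 3.9e-11). Vegfa, the main angiogenic growth factor, fell less, from 698, 723 and 760.4 CPM to 289.9, 249 and 237 CPM (log2 change -1.49, SE 0.102, edgeR adjusted p = 3.9e-09). Ndrg1 (-3.04) and Pdk1, the kinase that keeps pyruvate out of mitochondria (-3.41), lay between these extremes.

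The remaining 3 HIF targets did not pass the test. Car9, the carbonic anhydrase often used as a hypoxia marker, was low throughout, at 2.44, 4.61 and 4.37 CPM at 0 h and 2.45, 2.85 and 2.69 CPM at 24 h (log2 change -0.52, SE 0.42, edgeR adjusted p = 0.33), with overlapping libraries. Car12 (edgeR adjusted p = 0.097) and Pfkfb4 (edgeR adjusted p = 0.085) were not called either, at changes of -0.79 and -0.32. Nos2, the inducible nitric oxide synthase and also a gene that HIF can drive, was listed with the cytokines and immunomodulators and had the steepest fall among the named genes called. It was at 64.6, 75.6 and 70.4 CPM at 0 h and 0.817, 0.571 and 0.822 CPM at 24 h, which is 33 reads over the 24 h libraries against 2518 reads at 0 h. The ratio of 24 h over 0 h was 0.0106, with an exact 95% interval of 0.00729 to 0.0149 that covers counting error only (log2 change -6.54, SE 0.27, edgeR adjusted p = 7.9e-12).

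Promoters of the HIF list and of other lists, including a list that moved in both directions, were searched for short motifs. The RefSeq promoter table (GRCm38.p6) was matched by symbol, and its windows run from 250 bases before a gene's start to 50 after it. The letters ACGTG, the core of the HIF binding element, were present on at least 1 strand in 21 of 36 windows of 25 HIF targets (58.3%) and in 15 of 31 windows of 20 glycolysis genes (48.4%), against 19.6% of all 32851 windows. Mitosis genes and DNA replication genes each held them in 36.1% of windows. Below are the 150 bases before the start of 4 of these genes, 5′ to 3′ on the gene's own strand, chosen after it was seen that they hold the letters, with ACGTG on either strand in capitals. They lie at chr7:138909507-138909656 (minus strand) for Bnip3, chr8:45999851-46000000 (minus strand) for Ankrd37, chrX:106186950-106187099 (plus strand) for Pgk1 and chr7:46845654-46845803 (plus strand) for the first of the 2 Ldha windows, all on GRCm38.p6, whereas the deposited counts were made on GRCm39.
Bnip3: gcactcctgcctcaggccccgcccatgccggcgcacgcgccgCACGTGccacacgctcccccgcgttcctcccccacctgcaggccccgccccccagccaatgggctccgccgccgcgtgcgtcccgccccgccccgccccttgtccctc
Ankrd37: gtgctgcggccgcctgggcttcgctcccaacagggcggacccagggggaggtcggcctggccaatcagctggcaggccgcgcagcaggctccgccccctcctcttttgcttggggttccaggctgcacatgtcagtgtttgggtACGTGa
Pgk1: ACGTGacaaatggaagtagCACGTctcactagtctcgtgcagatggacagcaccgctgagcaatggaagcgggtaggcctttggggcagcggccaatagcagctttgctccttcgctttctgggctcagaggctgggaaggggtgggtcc
Ldha: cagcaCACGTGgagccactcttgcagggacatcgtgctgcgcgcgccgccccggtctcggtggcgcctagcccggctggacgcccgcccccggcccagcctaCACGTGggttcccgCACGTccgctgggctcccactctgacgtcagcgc
CACGTG reads the same on both strands, so it holds ACGTG once on each. Egln3 and Adm, which fell further than any of these 4, have no ACGTG in the 150 bases. A match is a description of the letters and not evidence of binding.

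Glycolysis genes fell almost to a member. Of 20 genes, 19 fell and none rose, all 19 by at least 2-fold, with a median of -2.0 and a summed level that went from 36500 to 41300 CPM at 0 h to 9800 to 11500 CPM at 24 h. The list shares 5 genes with the HIF list. Slc2a1, the glucose transporter GLUT1, was at 1065, 1162 and 1009 CPM at 0 h and 108, 109 and 116 CPM at 24 h (log2 change -3.28, SE 0.11, edgeR adjusted p = 1.7e-12). Hk1, the hexokinase that commits glucose to the cell, fell 10.2-fold from 576, 609 and 547 CPM to 52.5, 56.4 and 60.9 CPM (log2 change -3.35, SE 0.15, edgeR adjusted p = 2.2e-11), a steeper change than that of the HIF-driven Hk2, which went from 70.3, 64.8 and 58.6 CPM to 22.2, 22 and 20.6 CPM (log2 change -1.58, SE 0.13, edgeR adjusted p = 5.2e-08). The difference between these 2 changes was not tested.

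Genes of uptake, of the middle steps and of lactate export all fell. Pfkl, the liver-type phosphofructokinase, was at 803, 854 and 744 CPM at 0 h and 85.1, 91.3 and 98.8 CPM at 24 h (log2 change -3.12, SE 0.12, edgeR adjusted p = 4.9e-12). Aldoc, the brain-type aldolase, had the largest fall of the list, from 25.8, 22.7 and 23.3 CPM to 1.47, 2.28 and 1.94 CPM (log2 change -3.67, SE 0.27, edgeR adjusted p = 1.0e-08), while the common isoform Aldoa fell by 1.29. Ldha, which makes lactate from pyruvate, was at 5778, 5944 and 5228 CPM at 0 h and 1114, 1349 and 1304 CPM at 24 h (log2 change -2.17, SE 0.11, edgeR adjusted p = 1.2e-10). Slc16a3, the lactate exporter MCT4, went from 768, 879.9 and 778 CPM to 70.0, 72.2 and 72.3 CPM (log2 change -3.500, SE 0.13, edgeR adjusted p = 2.5e-12), whereas its relative Slc16a1 was the one member not called, at 90.7, 92.7 and 89.8 CPM at 0 h and 83.7, 71.1 and 74.5 CPM at 24 h (log2 change -0.25, SE 0.11, edgeR adjusted p = 0.074). Gapdh (-1.799), Eno1 (-2.22), Pkm (-1.29) and Pgk1 (-1.86) fell too. Their counts, with those of Pgam1 and Pfkp, were not exactly whole in any of the 12 libraries, so some of their reads were shared out between near-identical copies and their levels are less certain. Gapdh, like Actb, is a common reference gene, and both were called lower under every scaling tried: Gapdh went from 6971, 7233 and 6205 CPM to 1702, 2131 and 2030.0 CPM.

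**Figure D2:**
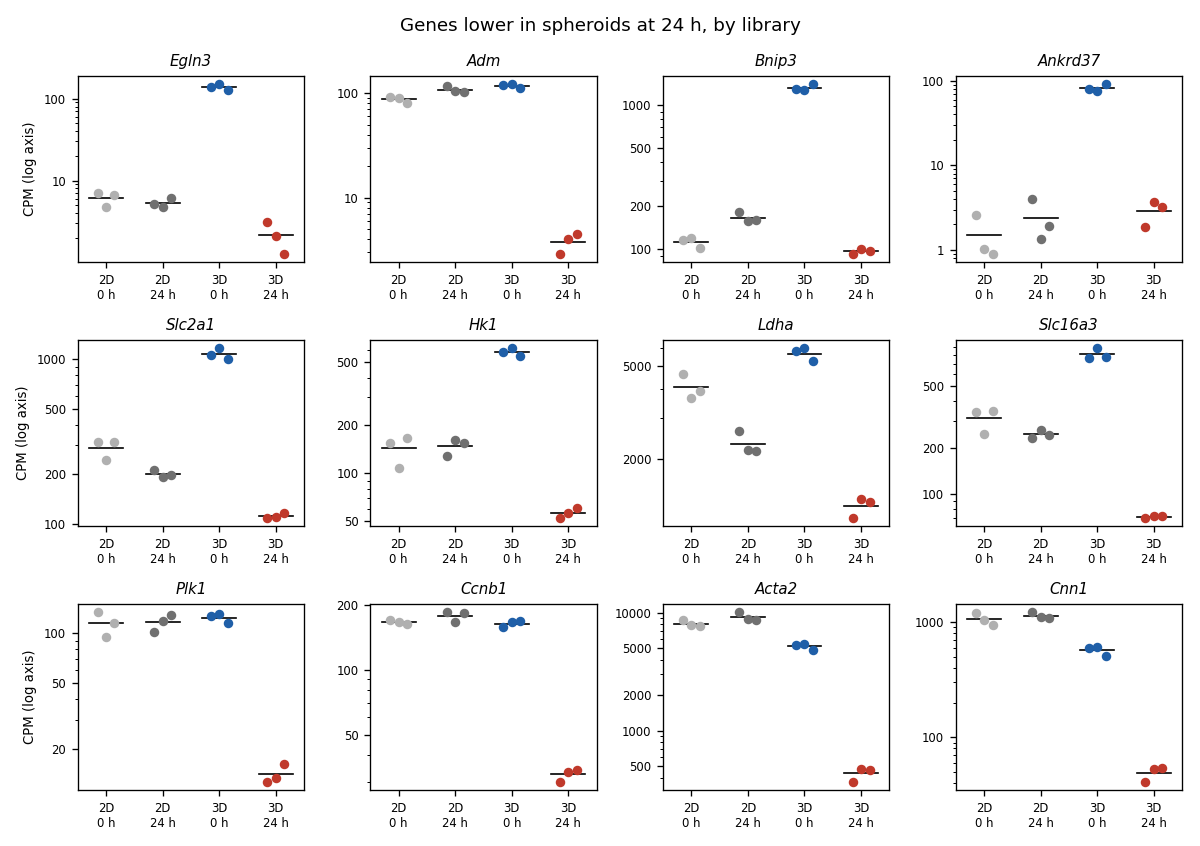
Level of 12 genes in each library, in CPM on a log axis, for 2D cells and spheroids at 0 h and 24 h; each point is 1 library and each bar the group mean of 3. In every panel the 3 spheroid libraries of 24 h lie below the 3 of 0 h, as for Bnip3 with 93.1 to 100.1 CPM against 1268 to 1386 CPM.

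Genes of mitosis fell without exception. All 40 members of the list were tested and all 40 fell, 39 of them by at least 2-fold and 30 by at least 4-fold, with a median of -2.33 and changes from -3.12 to -0.89. In each of the 40, every 24 h library was below every 0 h library, against 30.5% of all tested genes (29.8% lay wholly above). The summed level went from 2830 to 2900 CPM to 542 to 578 CPM. Plk1, the kinase that drives entry into and exit from mitosis, was at 126, 130.0 and 115 CPM at 0 h and 12.7, 13.5 and 16.4 CPM at 24 h (log2 change -3.12, SE 0.15, edgeR adjusted p = 4.4e-11). Kif20a, a kinesin of the dividing midzone, went from 210.4, 224 and 190.0 CPM to 22.4, 22.5 and 27 CPM (log2 change -3.12, SE 0.12, edgeR adjusted p = 3.5e-12). Ccnb1, which encodes cyclin B1, was at 158, 165 and 167 CPM at 0 h and 30.2, 33.6 and 34.3 CPM at 24 h (log2 change -2.32, SE 0.101, edgeR adjusted p = 1.4e-11).

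Widely used proliferation markers had smaller changes than the list's median. Mki67, the Ki-67 antigen, was at 42.5, 43.4 and 30.6 CPM at 0 h and 17.3, 10.8 and 12.4 CPM at 24 h (log2 change -1.51, SE 0.21, edgeR adjusted p = 2.1e-05), with all 3 libraries of 24 h below those of 0 h. Top2a, the topoisomerase that untangles sister chromatids, went from 95.7, 81.9 and 99 CPM to 25, 25.4 and 20.6 CPM (log2 change -1.96, SE 0.14, edgeR adjusted p = 4.6e-09). Cdk1, the mitotic kinase itself, went from 114, 111 and 116 CPM to 33.2, 42 and 38 CPM (log2 change -1.59, SE 0.11, edgeR adjusted p = 7.1e-09). The smallest change of the list was in Mad2l1 of the spindle checkpoint, at 36.8, 35 and 40.6 CPM at 0 h and 21.6, 19.8 and 19.1 CPM at 24 h (log2 change -0.89, SE 0.15, edgeR adjusted p = 1.1e-04). Cdc20 (-2.62), Ccnb2 (-2.96), Ccna2 (-2.43), Aurka (-2.67) and Aurkb (-2.44) all fell.

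The promoters of these genes are shown because the whole list moved. The letters TTTGAA, known as the cell cycle homology region at late cell cycle genes, stood in 25 of 36 windows of 34 mitosis genes (69.4%), against 17.9% of all windows and 8.33% of windows of DNA replication genes. CCAAT, the element of the factor NF-Y, stood in 75% of mitosis windows and 58.3% of replication windows, against 37.4% of all. GCGGGAAA, a form of the E2F element, stood in none of the mitosis windows, in 13.9% of replication windows and in 1.07% of all. The 150 bases before the start of 4 genes that hold TTTGAA follow, with TTTGAA on either strand (TTCAAA where it lies on the other) in capitals, at chr10:69352913-69353062, chr7:135716380-135716529, chr11:99024190-99024339 and chr4:118437344-118437493, all on the minus strand of GRCm38.p6.
Cdk1: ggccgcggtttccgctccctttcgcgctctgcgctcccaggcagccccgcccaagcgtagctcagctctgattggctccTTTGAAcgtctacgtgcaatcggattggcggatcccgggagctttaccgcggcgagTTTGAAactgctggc
Mki67: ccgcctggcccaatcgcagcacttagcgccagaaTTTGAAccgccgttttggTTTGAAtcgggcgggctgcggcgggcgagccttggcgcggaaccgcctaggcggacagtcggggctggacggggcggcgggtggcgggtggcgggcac
Top2a: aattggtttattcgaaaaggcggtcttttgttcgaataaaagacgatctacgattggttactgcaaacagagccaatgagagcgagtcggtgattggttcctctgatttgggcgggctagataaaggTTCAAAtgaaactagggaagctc
Cdc20: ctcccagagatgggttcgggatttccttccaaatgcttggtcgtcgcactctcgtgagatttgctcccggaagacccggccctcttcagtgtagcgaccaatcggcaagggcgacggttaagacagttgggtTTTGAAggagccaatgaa
Ccnb1, Ccnb2 and Plk1 have no TTTGAA in the 150 bases, and their changes (-2.32, -2.96 and -3.12) lay in the range of those that do or below it.

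DNA replication genes fell less uniformly than mitosis genes. Of 38 tested, 28 fell and 1 rose, with a median of -0.89, and 15 fell by at least 2-fold. Uhrf1, which copies DNA methylation after replication, went from 42.5, 42.8 and 43.1 CPM to 7.41, 7.58 and 7.7 CPM (log2 change -2.500, SE 0.21, edgeR adjusted p = 5.3e-08). Mcm5 of the replicative helicase was at 85.3, 87.3 and 79.3 CPM at 0 h and 17.9, 21.8 and 22.8 CPM at 24 h (log2 change -2.02, SE 0.14, edgeR adjusted p = 4.5e-09), whereas its partner Mcm2 was not called, at 51.4, 50.2 and 47.7 CPM at 0 h and 40.5, 45.2 and 40.5 CPM at 24 h (log2 change -0.24, SE 0.13, edgeR adjusted p = 0.12). Pcna, the sliding clamp of the polymerases, was not called either, at 73.8, 70.1 and 73.2 CPM at 0 h and 64.3, 86.2 and 77.7 CPM at 24 h (log2 change 0.071, SE 0.13, edgeR adjusted p = 0.67), and its libraries overlapped between the times. Ccne1, the cyclin of the G1 to S transition, was the 1 member that rose, from 17.3, 19 and 16.4 CPM to 32.7, 37.7 and 39.99 CPM (log2 change 1.06, SE 0.12, edgeR adjusted p = 2.2e-06).

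The G1 regulators went both ways: of 16 cyclin D, Myc and CDK inhibitor genes, 4 rose and 7 fell. Among all genes 23.8% rose and 24.7% fell. Myc, the growth-promoting transcription factor, was at 38.3, 38.8 and 33.7 CPM at 0 h and 90.7, 71 and 61.3 CPM at 24 h (log2 change 1.01, SE 0.13, edgeR adjusted p = 6.5e-06). Ccnd1, which encodes cyclin D1, went from 17, 13.5 and 11.3 CPM to 4.36, 6.44 and 4.56 CPM (log2 change -1.45, SE 0.23, edgeR adjusted p = 4.9e-05). Inhibitors of cyclin-dependent kinases fell as well: Cdkn1b (p27) was at 19.2, 16.2 and 18.7 CPM at 0 h and 5.66, 6.77 and 6.65 CPM at 24 h (log2 change -1.505, SE 0.24, edgeR adjusted p = 6.1e-05) and Cdkn1c (p57) at 19.5, 22 and 18.6 CPM at 0 h and 6.21, 7.26 and 8.3 CPM at 24 h (log2 change -1.47, SE 0.22, edgeR adjusted p = 3.7e-05). Cdkn1a (p21) fell by less (-0.74, edgeR adjusted p = 5.6e-05) and lost its call with limma on TPM, at -0.17 (limma adjusted p = 0.17 to 0.26 over 3 settings), although not when a single library was left out. Neither Trp53 (-0.104) nor its target Mdm2 (-0.101) was called. Of 24 p53 targets, 4 rose and 9 fell.

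Among 15 genes of the BCL2 family of cell death regulators, 4 rose and 6 fell, against 23.8% and 24.7% of all genes. The death-promoting Pmaip1 (NOXA) rose from 14.4, 13.5 and 19.4 CPM to 80.0, 66.1 and 81.3 CPM (log2 change 2.27, SE 0.199, edgeR adjusted p = 7.7e-08), and Bid from 14.4, 10.2 and 11.1 CPM to 38.7, 42.2 and 42.6 CPM (log2 change 1.79, SE 0.16, edgeR adjusted p = 8.6e-08). Bbc3 (PUMA, -1.35) and Bax (-0.58), which also promote death, fell. The survival gene Bcl2 was low and rose from 0.974, 1.49 and 2.1 CPM to 8.99, 6.2 and 5.38 CPM (log2 change 2.16, SE 0.33, edgeR adjusted p = 3.7e-05), while Bcl2l1 (BCL-XL) was not called (0.081, edgeR adjusted p = 0.62).

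The contractile genes that serum response factor and its actin-sensing partners drive fell with 1 exception. Of 23, 22 fell and 1 rose (0 to 1 rose over the alternatives), 18 fell by at least 2-fold, and the median was -1.86. Acta2, the smooth muscle actin of myofibroblasts, was at 5281, 5426 and 4796 CPM at 0 h and 370.0, 476 and 463 CPM at 24 h, an 11.8-fold fall (log2 change -3.57, SE 0.11, edgeR adjusted p = 4.5e-13). Cnn1, the actin-binding calponin, went from 589.7, 603 and 509 CPM to 41, 53 and 54.4 CPM (log2 change -3.52, SE 0.13, edgeR adjusted p = 2.5e-12). Tagln, the smooth muscle protein transgelin, was at 1229, 1240.0 and 1094 CPM at 0 h and 158, 212 and 172 CPM at 24 h (log2 change -2.72, SE 0.12, edgeR adjusted p = 1.6e-11). The libraries of the 2 times were far apart in all 3 genes. Myl9 (-3.19) and Actg2 (-3.47) fell as steeply, and the cytoplasmic Actb went from 4920.0, 4869 and 4568 CPM to 1314, 1655 and 1722 CPM (log2 change -1.61, SE 0.197, edgeR adjusted p = 3.7e-06). Actg1, whose counts were not exactly whole in any of the 12 libraries, was at the edge of the test (-0.22, edgeR adjusted p = 0.046). Leaving out replicate 1 or 2 of 0 h gave Actg1 changes of -0.18 and -0.14, leaving out replicate 1, 2 or 3 of 24 h gave -0.17, -0.22 and -0.22, and none of these was called. The member that rose was Srf, the transcription factor itself, at 16.9, 17 and 16.4 CPM at 0 h and 19.8, 24.1 and 22.9 CPM at 24 h (log2 change 0.41, SE 0.14, edgeR adjusted p = 0.021), a call that was lost without replicate 3 of 0 h (0.39) and without replicate 2 (0.35) or 3 (0.41) of 24 h.

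The Acta2 promoter is shown as the best studied of the list. Its 150 bases at chr19:34255374-34255523 (minus strand, GRCm38.p6) hold the CArG frame of the serum response element (a pair of C and a pair of G with 6 free bases between) at 2 places, in capitals here.
Acta2: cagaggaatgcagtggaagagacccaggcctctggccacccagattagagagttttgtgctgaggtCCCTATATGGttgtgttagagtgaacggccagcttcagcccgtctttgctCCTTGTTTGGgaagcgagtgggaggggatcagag
This loose frame stood in 95% of contractile windows and in 73.3% of all windows.

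Caveola genes, which form the membrane pits that buffer stretch, fell in 5 of 7 cases. Cavin1, the coat protein that shapes the pits, went from 687, 719 and 625 CPM to 119, 114 and 118 CPM (log2 change -2.53, SE 0.14, edgeR adjusted p = 3.7e-10), and Cavin2 from 41.9, 37.2 and 45.6 CPM to 7.57, 6.77 and 6.43 CPM (log2 change -2.58, SE 0.15, edgeR adjusted p = 5.7e-10). Cav1, the main caveolin, fell only by 0.399 (edgeR adjusted p = 0.0024), and Cav2 rose from 12.3, 12.2 and 14.1 CPM to 31.4, 28.8 and 31.7 CPM (log2 change 1.252, SE 0.18, edgeR adjusted p = 1.9e-05). Targets of the stretch-sensitive coactivators YAP and TAZ moved in both directions: of 18, 4 rose and 7 fell (4 to 7 fell over the alternatives). The share that rose was near the 23.8% of all genes, of which 24.7% fell. Ccn2 (CTGF), a secreted matricellular protein, was at 80.1, 89.2 and 75.3 CPM at 0 h and 361, 318 and 324 CPM at 24 h (log2 change 2.04, SE 0.092, edgeR adjusted p = 2.2e-11), while Ankrd1 fell from 3.02, 3.2 and 2.77 CPM to 0.272, 1.06 and 0.897 CPM and Amotl2 from 77.1, 71.8 and 66.8 CPM to 17.6, 16 and 15.1 CPM (log2 change -2.14, SE 0.15, edgeR adjusted p = 4.9e-09). Ccn1 (CYR61) was not called (0.13, edgeR adjusted p = 0.24). Ankrd1 rested on 107 reads at 0 h and 30 at 24 h, a ratio of 0.227 with an exact 95% interval of 0.146 to 0.343. In the promoter search, the letters GGAATG stood in 72.2% of windows of YAP and TAZ targets, against 14.7% of all windows. A motif was thus common in a list that did not move together.

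Collagen genes and the enzymes that mature collagen fell more often than they rose. Of 24 fibrillar collagen and crosslinking genes, 3 rose and 14 fell, with a median of -0.50. Col3a1, the collagen of loose connective tissue, rose from 5138, 5086 and 4838 CPM to 12757, 12469 and 11659 CPM (log2 change 1.29, SE 0.12, edgeR adjusted p = 1.6e-07). Col1a1 was at 12754, 14965 and 12614 CPM at 0 h and 22729, 15175 and 12618 CPM at 24 h (log2 change 0.33, SE 0.18, edgeR adjusted p = 0.14) and was not called. Replicate 1 of 24 h decided its value: the change was 0.07 without it, and 0.52 and called (edgeR adjusted p = 0.03) without replicate 3 of 24 h. Col1a2 was not called (0.13, edgeR adjusted p = 0.44).

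Several crosslinking and hydroxylating enzymes fell. Lox, which crosslinks collagen and elastin, was at 2804, 2683 and 3285 CPM at 0 h and 1070.0, 755 and 756 CPM at 24 h (log2 change -1.76, SE 0.15, edgeR adjusted p = 4.6e-08). Its relative Loxl2 fell by 1.15 and Loxl4 from 49.1, 55 and 38.6 CPM to 11.1, 7.34 and 11.5 CPM (log2 change -2.25, SE 0.19, edgeR adjusted p = 5.6e-08). P4ha1 (-1.23) and P4ha2 (-1.57), the collagen prolyl hydroxylases, fell and are also HIF targets. Col11a1 (-1.93) and Col12a1 (-1.37) fell among the collagens, while Col5a3 rose (0.996).

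Matricellular proteins gave some of the largest rises. Of 27 basement membrane and matricellular genes, 10 rose and 9 fell (5 to 10 fell over the alternatives). Spp1, which encodes osteopontin, a secreted protein that binds integrins and mineral, was at 1624, 1615 and 1761 CPM at 0 h and 11989, 11112 and 10048 CPM at 24 h (log2 change 2.73, SE 0.11, edgeR adjusted p = 9.1e-12). Postn, which encodes periostin, a matrix protein of healing tissue, went from 632, 580.0 and 708 CPM to 5815, 5274 and 5805 CPM, an 8.8-fold rise (log2 change 3.14, SE 0.15, edgeR adjusted p = 4.4e-11). Tnc (tenascin C) rose by 0.85 and Col6a1 by 0.79. Nid2, which links the laminin and collagen nets of basement membrane, fell from 169.7, 182 and 158 CPM to 32.4, 32.2 and 19.7 CPM (log2 change -2.596, SE 0.19, edgeR adjusted p = 1.0e-08), and Thbs1 fell by 0.77. Fn1 (fibronectin, 0.078) and Sparc (0.024) were not called. Integrins, the receptors for these proteins, fell in 7 of 17 cases and rose in 2 (4 to 8 and 1 to 2 over the alternatives): Itgb1, the shared beta chain, went from 1103, 1040.0 and 1152 CPM to 754, 716 and 849 CPM (log2 change -0.51, SE 0.098, edgeR adjusted p = 4.3e-04), and Itga5 (0.099) was not called.

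Of 19 proteoglycan and hyaluronan genes, 11 rose and 4 fell (2 to 4 fell over the alternatives), with a median of 0.37. Dcn, the collagen-binding proteoglycan decorin, was at 50.6, 45.7 and 55.8 CPM at 0 h and 389, 422 and 374 CPM at 24 h (log2 change 2.96, SE 0.14, edgeR adjusted p = 4.1e-11). Its relative Lum (lumican) was near 0 at first, with 12 reads over the 0 h libraries and 547 at 24 h, a ratio of 36.9 (exact 95% interval 20.9 to 71.8, counting error only). Prg4, which encodes the joint lubricant lubricin, went from 7.7, 8.48 and 9.15 CPM to 77.3, 63.6 and 52.3 CPM (log2 change 2.93, SE 0.24, edgeR adjusted p = 2.9e-08). The cell surface proteoglycans split: Sdc2 rose (1.697) and Sdc4 fell from 159.9, 189 and 160.5 CPM to 23.1, 24.2 and 22.9 CPM (log2 change -2.86, SE 0.12, edgeR adjusted p = 6.4e-12). Has2, the main hyaluronan synthase, rose by 0.85 (edgeR adjusted p = 9.1e-05). Vcan (versican) rested on replicate 1 of 24 h: it was called at 0.41 (edgeR adjusted p = 0.042) and at 0.25 (edgeR adjusted p = 0.19) without that library. Vcan also lost its call without replicate 1, 2 or 3 of 0 h (0.46, 0.39 and 0.44).

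Matrix proteases rose in 11 of 21 cases and fell in 6, with a median of 0.59, and the summed level of the list went from 5190 to 5360 CPM to 11000 to 12000 CPM. Mmp13, a collagenase that cuts fibrillar collagen, was nearly silent at 0 h with 3 reads over the 3 libraries and had 2647 reads at 24 h. Per library it was at 0.195, 0.0744 and 0 CPM at 0 h and 60.9, 56.1 and 62.9 CPM at 24 h. The ratio was 714, with an exact 95% interval of 244 to 3470 (counting error only). Mmp9, a gelatinase, went from 0.974, 1.56 and 1.85 CPM to 48.1, 45.8 and 35.3 CPM (log2 change 4.86, SE 0.38, edgeR adjusted p = 1.7e-08). Mmp10, a stromelysin, went from 15 to 441 reads, a ratio of 23.8 (exact 95% interval 14.3 to 42.9).

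The more abundant proteases rose by smaller factors. Mmp14, the membrane-bound protease that activates pro-MMP2, was at 1013, 1040.0 and 1021 CPM at 0 h and 3215, 2505 and 2607 CPM at 24 h (log2 change 1.44, SE 0.095, edgeR adjusted p = 2.4e-09), and Mmp2 itself at 543, 548 and 547 CPM at 0 h and 1711, 1591 and 1694 CPM at 24 h (log2 change 1.61, SE 0.091, edgeR adjusted p = 3.4e-10). Mmp11 (2.64), Mmp3 (1.77) and Plat, the tissue plasminogen activator (1.67), rose. The inhibitor Timp2, which also takes part in MMP2 activation, rose by 1.248, and Timp1 by 0.59, whereas Timp3 fell by 0.38. Adamts1 (-1.46) and Adamts5 (-0.85), which cut proteoglycans, fell.

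**Figure D3:**
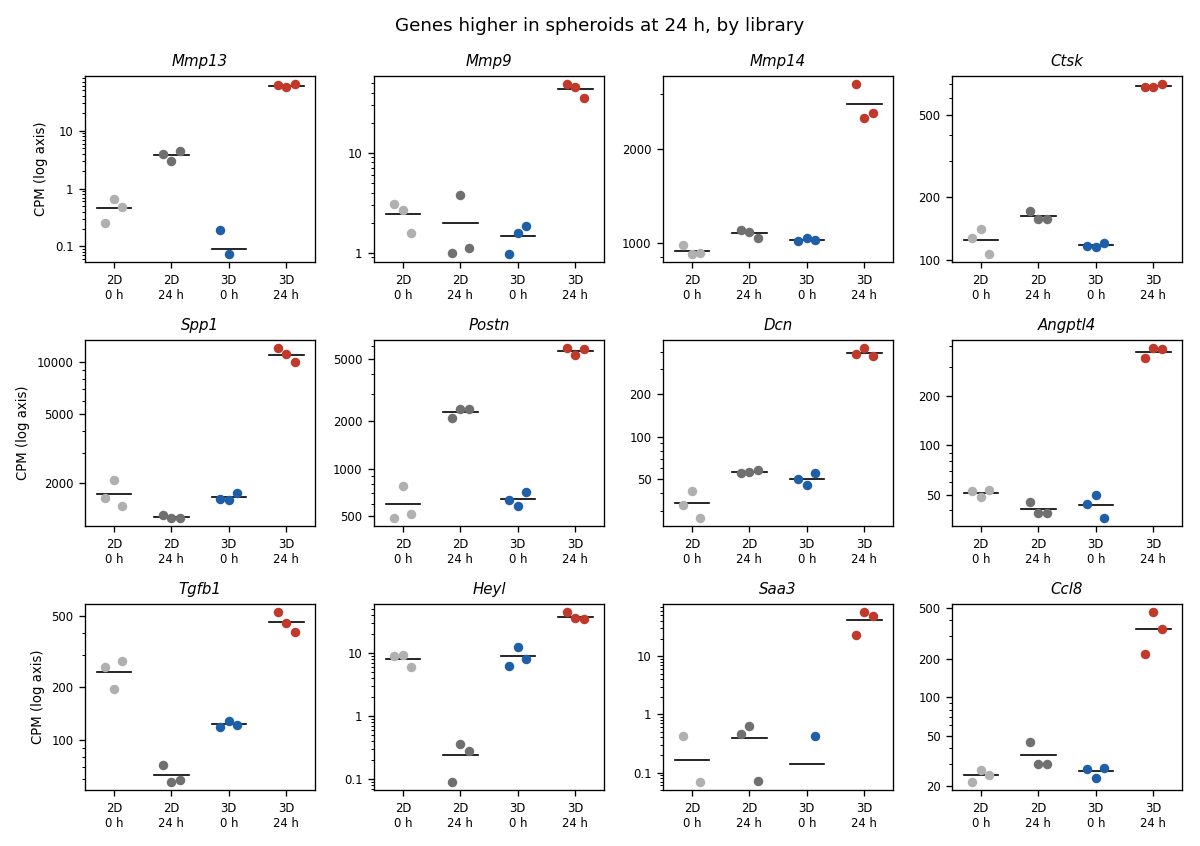
Level of 12 genes in each library, in CPM on a log axis, for 2D cells and spheroids at 0 h and 24 h; each point is 1 library and each bar the group mean of 3, zeros included. In every panel the 3 spheroid libraries of 24 h lie above the 3 of 0 h; libraries at 0 cannot be drawn on a log axis, namely 1 spheroid library of 0 h for Mmp13, and 2 spheroid libraries and 1 2D library of 0 h for Saa3.

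Lysosome and autophagy genes rose in 21 of 26 cases and fell in 1 (0 to 1 over the alternatives), with a median of 0.72 and a summed level that went from 9650 to 10000 CPM to 17500 to 18600 CPM. Ctsk, a collagen-degrading protease best known from osteoclasts, was at 117, 115 and 120.4 CPM at 0 h and 678, 682 and 699 CPM at 24 h (log2 change 2.55, SE 0.11, edgeR adjusted p = 9.6e-12). Ctsb, a cathepsin of most lysosomes, went from 1612, 1649 and 1608 CPM to 4274, 4550.0 and 4651 CPM (log2 change 1.47, SE 0.078, edgeR adjusted p = 1.6e-10). The spread within each time was a small part of either change. Lamp2, a lysosomal membrane protein, rose by 1.29, and Ctsd by 0.82. Atp6v0d2, a proton pump subunit found mostly in osteoclasts and macrophages, went from 7 to 603 reads, a ratio of 69.7 (exact 95% interval 33.6 to 174). Itgb2, an integrin chain of leukocytes, rose too, at 0.195, 0.521 and 1.18 CPM at 0 h and 3.65, 3.83 and 2.09 CPM at 24 h (log2 change 2.31, SE 0.64, edgeR adjusted p = 0.0066). The summed level of the 11 leukocyte and macrophage markers was lower at 24 h, as given above, but most of that sum was Csf1r. Of the 3 of these markers tested, Csf1r fell and 2 were not called. The part of leukocytes and macrophages in the rise of Atp6v0d2 was not tested. Sqstm1, the autophagy adaptor p62, was not called, at 1177, 1201 and 1102 CPM at 0 h and 1200.0, 1242 and 1242 CPM at 24 h (log2 change 0.082, SE 0.085, edgeR adjusted p = 0.45). The member that fell was Atp6v0a1 (-0.37, edgeR adjusted p = 0.018), which lost its call without replicate 1 (-0.32) or 2 (-0.29) of 0 h and without replicate 2 (-0.35) or 3 (-0.32) of 24 h.

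Ligands of the TGF-beta family rose, while their target genes went both ways. Of 19 pathway genes, 9 rose and 8 fell (5 to 9 fell over the alternatives). Tgfb1, a ligand that stimulates matrix synthesis, was at 118, 128 and 120.5 CPM at 0 h and 526, 459 and 406 CPM at 24 h (log2 change 1.93, SE 0.14, edgeR adjusted p = 7.9e-09), Tgfb2 rose by 1.48 and Tgfb3 by 0.58. Inhba, which encodes the activin A subunit, went from 107, 98 and 97.7 CPM to 632, 497 and 501 CPM (log2 change 2.43, SE 0.195, edgeR adjusted p = 2.5e-08). The receptor gene Tgfbr2 rose (0.71), and Tgfbr1 was not called (0.36, edgeR adjusted p = 0.13). Among the targets, Tgfbi rose from 104, 110.3 and 97.5 CPM to 336, 329.7 and 373 CPM (log2 change 1.73, SE 0.098, edgeR adjusted p = 3.7e-10), while the feedback inhibitor Smad7 (-0.49) fell. The latent TGF-beta binding proteins, which store the ligand in the matrix, fell: Ltbp1 went from 87.2, 94.9 and 85.9 CPM to 17.6, 15.4 and 16 CPM (log2 change -2.45, SE 0.14, edgeR adjusted p = 3.0e-10), and Ltbp2 fell by 2.17.

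BMP pathway genes rose in 8 of 16 cases and fell in 1 (0 to 2 over the alternatives), with a median of 0.41. The classical targets rose: Id1, an inhibitor of differentiation factors, was at 39.9, 36.1 and 33.9 CPM at 0 h and 92.5, 123 and 112 CPM at 24 h (log2 change 1.58, SE 0.14, edgeR adjusted p = 1.0e-07), Id3 went from 191, 188 and 176 CPM to 603, 763 and 691 CPM (log2 change 1.89, SE 0.12, edgeR adjusted p = 1.2e-09) and Id2 rose by 0.77. Grem1, a secreted antagonist of BMP, rose with them, from 32, 26.4 and 32.4 CPM to 169, 138 and 129.7 CPM (log2 change 2.27, SE 0.18, edgeR adjusted p = 2.5e-08). Bmpr2, a BMP receptor, rose by 1.36. Bmp4 was listed at 0 in all 6 spheroid libraries.

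Of 19 Wnt pathway genes, 9 rose and 5 fell (3 to 6 fell over the alternatives). Known target and feedback genes of Wnt signalling rose from low levels. Nkd2, a feedback inhibitor, was at 4.09, 2.6 and 3.86 CPM at 0 h and 32.1, 40.5 and 38 CPM at 24 h (log2 change 3.398, SE 0.197, edgeR adjusted p = 4.6e-10), and Nkd1 at 2.44, 2.08 and 1.59 CPM at 0 h and 12.2, 8.4 and 10.3 CPM at 24 h (log2 change 2.34, SE 0.34, edgeR adjusted p = 2.8e-05). Lef1, a transcription factor of the pathway, went from 13 to 227 reads, a ratio of 14.1 (exact 95% interval 8.1 to 27), Tcf7 rose by 2.202, and Axin2 was at most 2.18 CPM in any library (log2 change 1.94, SE 0.54, edgeR adjusted p = 0.0069). Among the secreted Wnt antagonists, Sfrp1 went from 799.9, 791 and 779 CPM to 248, 235 and 259 CPM (log2 change -1.68, SE 0.11, edgeR adjusted p = 2.8e-09) and Sfrp2 from 142, 157 and 156 CPM to 40.2, 33.4 and 36 CPM (log2 change -2.05, SE 0.12, edgeR adjusted p = 4.8e-10). Wnt5a was not called (0.004, edgeR adjusted p = 0.98).

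Notch genes rose in 6 of 12 cases and fell in 4 (1 to 4 over the alternatives). The ligand gene Jag1 was at 10.7, 20.1 and 11.5 CPM at 0 h and 86.7, 67.4 and 68 CPM at 24 h (log2 change 2.38, SE 0.23, edgeR adjusted p = 2.5e-07). The target genes Heyl and Hes1, transcriptional repressors, rose: Heyl went from 6.14, 12.4 and 7.89 CPM to 43.5, 35.1 and 33.8 CPM (log2 change 2.08, SE 0.24, edgeR adjusted p = 2.2e-06), and Hes1 from 42.3, 50.2 and 50.4 CPM to 84.5, 85 and 74 CPM (log2 change 0.77, SE 0.11, edgeR adjusted p = 2.0e-05). Receptors moved apart. Notch1 rose by 0.601 (edgeR adjusted p = 0.009), but by 0.44 (edgeR adjusted p = 0.058) without replicate 1 of 24 h, and Notch3 fell by 0.75 (edgeR adjusted p = 0.0063), with a change of -0.60 (edgeR adjusted p = 0.052) without replicate 3 of 24 h. Notch2 (-0.68) and Rbpj, the nuclear partner of Notch (-0.92), fell. With limma on TPM, none of the 3 receptors was called in any of the 3 settings. The limma changes were 0.27 to 0.30 for Notch1, -0.36 to -0.33 for Notch2 and -0.36 to -0.31 for Notch3.

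Growth factors rose in 8 of 24 cases and fell in 6, against 23.8% higher and 24.7% lower among all genes. Angptl4, a secreted regulator of lipases and vessels, was at 43.9, 49.5 and 36 CPM at 0 h and 338, 389 and 387 CPM at 24 h (log2 change 3.105, SE 0.13, edgeR adjusted p = 9.0e-12). It is often driven by HIF and moved against the HIF list. Ptn, the heparin-binding pleiotrophin, went from 19.1, 18.4 and 18.4 CPM to 118, 139.7 and 143 CPM (log2 change 2.84, SE 0.16, edgeR adjusted p = 3.6e-10), and Igf1 from 4.78, 5.36 and 6.05 CPM to 33, 35.1 and 27.9 CPM (log2 change 2.56, SE 0.19, edgeR adjusted p = 1.3e-08). Vegfd and Pgf, angiogenic relatives of Vegfa, fell like it: Vegfd went from 78.3, 93.2 and 82.5 CPM to 17.6, 12.2 and 14.5 CPM (log2 change -2.51, SE 0.15, edgeR adjusted p = 7.2e-10) and Pgf, the placental growth factor, from 29.6, 28 and 24.5 CPM to 4.68, 4.97 and 4.19 CPM (log2 change -2.57, SE 0.17, edgeR adjusted p = 2.3e-09). Hgf and Fgf2, both often measured in these cells, were not called (-0.14 and 0.099, edgeR adjusted p = 0.38 and 0.7).

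Chemokines rose in 6 of 12 cases and fell in 4, with a median of 0.75. Monocyte attractants were among the risers. Ccl8 was at 27.6, 23.1 and 28 CPM at 0 h and 219.5, 460.4 and 341 CPM at 24 h, a 13-fold rise (SE of the log2 change 0.23, edgeR adjusted p = 1.2e-09), Ccl7 went from 66.5, 59.5 and 70.6 CPM to 239, 347 and 292 CPM (log2 change 2.16, SE 0.15, edgeR adjusted p = 3.2e-09), and Ccl2 from 32.5, 24.9 and 30.1 CPM to 71, 106 and 91 CPM (log2 change 1.61, SE 0.16, edgeR adjusted p = 2.7e-07). In all 3 the lowest 24 h library was replicate 1. Ccl11, an eosinophil attractant, rose by 2.25. Ccl9 fell from 10.5, 12.1 and 10.5 CPM to 0.708, 1.47 and 0.747 CPM (log2 change -3.53, SE 0.28, edgeR adjusted p = 1.8e-08), and the neutrophil attractant Cxcl5 from 55.6, 64.1 and 65.7 CPM to 12.6, 17.7 and 16.7 CPM (log2 change -1.99, SE 0.14, edgeR adjusted p = 4.1e-09). Cxcl12, which holds blood stem cells in their niche, was at the edge of the test (-0.25, edgeR adjusted p = 0.049), and its call was lost in each of the 6 fits that left out 1 spheroid library, with changes of -0.23, -0.25 and -0.22 without replicates 1 to 3 of 0 h and of -0.26, -0.26 and -0.20 without replicates 1 to 3 of 24 h.

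Of 14 cytokine and immunomodulator genes, 5 rose and 5 fell (3 to 5 rose over the alternatives). Il6, a cytokine of the acute response, was at 8.77, 5.58 and 7.3 CPM at 0 h and 40.2, 38 and 30.1 CPM at 24 h (log2 change 2.33, SE 0.24, edgeR adjusted p = 5.5e-07). Ptgs2, the inducible cyclooxygenase, rose by 0.94 (edgeR adjusted p = 0.001), whereas Ptges, the prostaglandin E synthase that acts after it, fell by 1.13. Tnfaip6 (TSG-6), an anti-inflammatory protein often studied in spheroids of these cells, was not called, at 24.4, 22.9 and 25.7 CPM at 0 h and 19.9, 22.2 and 18.8 CPM at 24 h (log2 change -0.26, SE 0.196, edgeR adjusted p = 0.29). Complement and acute phase genes rose in 8 of 12 cases and fell in 2, with a median of 0.62. Saa3, an acute phase apolipoprotein, went from 5 to 1757 reads, a ratio of 284 (exact 95% interval 122 to 877), with 23, 56.1 and 48.4 CPM at 24 h. Ptx3, the long pentraxin, fell from 108, 108 and 104 CPM to 26.8, 33 and 31.3 CPM (log2 change -1.81, SE 0.11, edgeR adjusted p = 9.9e-10).

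Stromal and lineage markers moved in both directions, to be read against 23.8% higher and 24.7% lower among all genes. Of 12 stromal markers, 3 rose and 6 fell (1 to 4 and 3 to 6 over the alternatives), none of the falls by 2-fold. Pdgfra (-0.94), Ly6a, the mouse SCA-1 antigen (-0.82), and Pdgfrb (-0.64) fell, and Cd34 rose from 6.24, 6.4 and 6.05 CPM to 11.2, 15.4 and 13.4 CPM (log2 change 1.098, SE 0.33, edgeR adjusted p = 0.011). Of 13 bone and cartilage genes, 6 rose and 4 fell (2 to 4 fell over the alternatives), with a median of 0.59. At least 2-fold changes made up 5 of the 6 rises, with Spp1 (given above) among them, and all 4 falls. Runx2, the master factor of bone formation, rose by 0.82 (edgeR adjusted p = 6.1e-05), while Alpl, the bone-type alkaline phosphatase, fell from 86.3, 88.9 and 80.4 CPM to 11.7, 9.05 and 10.8 CPM (log2 change -3.01, SE 0.15, edgeR adjusted p = 9.9e-11) and the cartilage factor Sox9 from 195, 208 and 206 CPM to 75.2, 71.2 and 54.3 CPM (log2 change -1.597, SE 0.13, edgeR adjusted p = 2.5e-08). Of 10 adipocyte genes, 3 rose and 5 fell (3 to 5 fell over the alternatives). Fabp4, the fatty acid carrier of fat cells, fell from 24.3, 23.3 and 28 CPM to 6.48, 10.0 and 11 CPM (log2 change -1.47, SE 0.23, edgeR adjusted p = 6.2e-05), whereas Plin2, which coats lipid droplets in many cells, rose by 1.03. Pparg, the master factor of fat cells, was at 14.2, 19.4 and 22.9 CPM at 0 h and 12.9, 11.6 and 13.5 CPM at 24 h (log2 change -0.57, SE 0.18, edgeR adjusted p = 0.016) and lost its call without replicate 2 (-0.52) or 3 (-0.41) of 0 h or replicate 2 of 24 h (-0.51).

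Twist1, Zeb1 and Snai2, transcription factors of the mesenchymal state, rose while N-cadherin fell. Twist1 went from 36, 40.4 and 42.7 CPM to 91.1, 98.3 and 92 CPM (log2 change 1.24, SE 0.12, edgeR adjusted p = 1.7e-07), Zeb1 from 18, 17.1 and 21.7 CPM to 61.4, 51.4 and 53.3 CPM (log2 change 1.55, SE 0.15, edgeR adjusted p = 1.8e-07), and Snai2 rose by 1.21. Cdh2, which encodes N-cadherin, fell from 209.8, 225 and 218 CPM to 93.7, 74 and 83.3 CPM (log2 change -1.38, SE 0.11, edgeR adjusted p = 3.1e-08). Of the 13 genes of this list, 7 rose and 5 fell (3 to 5 fell over the alternatives), with changes from -2.44 to 1.55.

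Chaperones of the endoplasmic reticulum fell in 14 of 18 cases and rose in 1 (1 to 2 over the alternatives), with a median of -0.65. Hspa5 (BiP), the central chaperone, was at 2270.0, 2139 and 2379 CPM at 0 h and 1340.0, 1285 and 1375 CPM at 24 h (log2 change -0.76, SE 0.088, edgeR adjusted p = 2.0e-06), and Calr (calreticulin) fell by 1.245. The stress-induced transcription factor Xbp1 was not called (0.18, edgeR adjusted p = 0.13). Ribosome biogenesis genes went the other way, with 13 of 24 higher and 4 lower and a median of 0.46. Gnl3 (nucleostemin) was at 24.3, 20.1 and 28.1 CPM at 0 h and 101, 93.7 and 86.9 CPM at 24 h (log2 change 1.96, SE 0.15, edgeR adjusted p = 1.3e-08), and the box C/D small nucleolar protein Nop58 went from 23.7, 23.5 and 31.1 CPM to 83.7, 73.6 and 78.3 CPM (log2 change 1.59, SE 0.16, edgeR adjusted p = 3.5e-07). The abundant nucleolar genes Ncl (-0.56) and Fbl (-0.65) fell.

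Of 13 subunits encoded in the mitochondrial genome, 6 rose and 1 fell (0 to 2 fell over the alternatives), with a median of 0.61. The summed level was 5020 to 5070 CPM at 0 h and 5290 to 7800 CPM at 24 h. mt-Nd1, a subunit of complex I, went from 292, 302 and 293 CPM to 513, 699 and 619.8 CPM (log2 change 1.05, SE 0.14, edgeR adjusted p = 7.0e-06), and mt-Nd5 from 171, 196 and 159 CPM to 511, 444 and 499 CPM (log2 change 1.47, SE 0.21, edgeR adjusted p = 2.1e-05). mt-Co1 was not called (0.069, edgeR adjusted p = 0.8). Cholesterol genes were divided, with 7 of 24 higher and 9 lower, against 23.8% higher and 24.7% lower among all genes. Msmo1, a sterol methyl oxidase, rose from 29.2, 34.5 and 39.8 CPM to 75.7, 75.3 and 76.3 CPM (log2 change 1.13, SE 0.12, edgeR adjusted p = 4.4e-07), and Stard4, a sterol carrier, fell from 22.6, 21.7 and 29.1 CPM to 6.64, 8.56 and 8.07 CPM (log2 change -1.66, SE 0.21, edgeR adjusted p = 5.0e-06).

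To see which of these changes 24 h of culture also gave in 2D cells, the change in spheroids was set against the change in 2D cells, and the difference of the 2 changes was tested over all 12 libraries. In 2D cells 4930 genes were called (34.4%), 2489 higher (17.4%) and 2441 lower (17%). The difference between the changes was called in 5610 genes (39.1%), with the spheroid change above the 2D change in 2676 (18.7%) and below it in 2934 (20.5%). Of the genes called in spheroids, 798 rose in both cultures and 712 fell in both, while 601 rose in spheroids and fell in 2D and 636 fell in spheroids and rose in 2D. The changes in the 2 cultures share no library.

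Of the 4 lists that fell most in spheroids, 3 had medians above 0 in 2D cells. The difference was called below 0 for all 40 mitosis genes, of which 18 rose and 1 fell in 2D (median 0.34), for 25 of 27 HIF targets, of which 9 rose and 5 fell in 2D (median 0.16), and for 20 of 23 contractile genes, of which 5 rose and 4 fell in 2D (median 0.10). Glycolysis genes fell in 2D in 11 of 20 cases (median -0.38), but less than in spheroids for 19 of 20. Plk1 was at 133, 95.1 and 115 CPM at 0 h and 101, 118 and 129 CPM at 24 h in 2D, where its change was not called (difference -3.15, SE 0.199, edgeR adjusted p = 2.6e-09). Bnip3 was at 116, 119.9 and 102 CPM at 0 h and 182, 157 and 159 CPM at 24 h in 2D and rose there, though at each time in 2D it stayed far below its 0 h level in spheroids (difference -4.33, SE 0.14, edgeR adjusted p = 5.4e-12). Acta2 was at 8691, 7904 and 7635 CPM at 0 h and 10012, 8899 and 8693 CPM at 24 h in 2D (difference -3.75, SE 0.14, edgeR adjusted p = 9.1e-12), and every 2D library was above every spheroid library.

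The differences were ranked among named genes whose difference was called and which met 2 limits in spheroids. These were a mean of at least 10 CPM at 1 time and no overlap of libraries between the times. The lowest differences were those of Nos2, Egln3, Ankrd37, Adm and Myh11. Egln3 was already low in 2D, at 6.96, 4.74 and 6.62 CPM at 0 h and 5.17, 4.77 and 6.2 CPM at 24 h (difference -5.77, SE 0.32, edgeR adjusted p = 5.8e-10). Adm in 2D was close to its 0 h level in spheroids, and its change there was not called, at 91.7, 90.8 and 81.1 CPM at 0 h and 118, 105 and 103 CPM at 24 h (difference -5.28, SE 0.19, edgeR adjusted p = 5.6e-12). Myh11, the smooth muscle myosin, fell in spheroids from 15.7, 12.4 and 14.4 CPM to 2.94, 2.04 and 1.72 CPM and rose in 2D (difference -4.59, SE 0.32, edgeR adjusted p = 6.8e-09). Ankrd37 had a difference of -5.55, SE 0.53, edgeR adjusted p = 3.1e-07. Nos2 had at most 0.211 CPM in any 2D library, so its difference (-7.94, SE 1.598, edgeR adjusted p = 7.7e-04) rests on almost no reads on the 2D side, and it was -4.69 (edgeR adjusted p = 0.95) without replicate 3 of 2D at 24 h.

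By the same limits, the highest differences were those of Heyl, Saa3, Mmp13, Mmp9 and Il11. Heyl fell in 2D while it rose in spheroids, with 8.77, 9.2 and 6 CPM at 0 h and 0.0907, 0.36 and 0.282 CPM at 24 h in 2D (difference 7.03, SE 0.47, edgeR adjusted p = 5.7e-09). Mmp9 was low at both times in 2D, at 3.1, 2.7 and 1.59 CPM at 0 h and 0.998, 3.78 and 1.13 CPM at 24 h (difference 5.19, SE 0.56, edgeR adjusted p = 1.3e-06), and Mmp13 reached 60.9, 56.1 and 62.9 CPM in spheroids against 3.9, 2.97 and 4.51 CPM in 2D at 24 h (difference 6.34, SE 0.67, edgeR adjusted p = 1.2e-06). Il11, a cytokine of fibrosis, fell in 2D, where it was at 155, 168 and 144 CPM at 0 h and 8.44, 9.27 and 7.96 CPM at 24 h, and was at 9.06, 10.4 and 11.4 CPM at 0 h and 16.1, 12.8 and 15.2 CPM at 24 h in spheroids (difference 4.703, SE 0.196, edgeR adjusted p = 2.7e-11). Saa3 had a difference of 6.94, SE 1.84, edgeR adjusted p = 0.0064, which was 5.15 (edgeR adjusted p = 0.32) without replicate 1 of 2D at 0 h.

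Several signalling genes moved in opposite directions in the 2 cultures. Tgfb1 was at 258, 192 and 278 CPM at 0 h and 71.5, 57.5 and 59 CPM at 24 h in 2D (difference 3.88, SE 0.199, edgeR adjusted p = 2.5e-10), Inhba at 1793, 2913 and 1422 CPM at 0 h and 407, 484 and 478 CPM at 24 h (difference 4.59, SE 0.27, edgeR adjusted p = 1.3e-09) and Il6 at 24.1, 38.3 and 24.8 CPM at 0 h and 5.53, 8.82 and 10.1 CPM at 24 h (difference 4.16, SE 0.34, edgeR adjusted p = 4.9e-08). In each, every 24 h library lay below those of 0 h in 2D and above those of 0 h in spheroids. Spp1 was at 1651, 2081 and 1478 CPM at 0 h and 1319, 1266 and 1265 CPM at 24 h in 2D (difference 3.17, SE 0.15, edgeR adjusted p = 1.6e-10). Ctsk rose in both cultures, by 0.38 in 2D, and by more in spheroids (difference 2.17, SE 0.15, edgeR adjusted p = 5.5e-09). The spheroid change was above the 2D change for 18 of 26 lysosome genes and below it for 1, and for ribosome biogenesis genes these counts were 16 and 1 of 24.

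**Figure D4:**
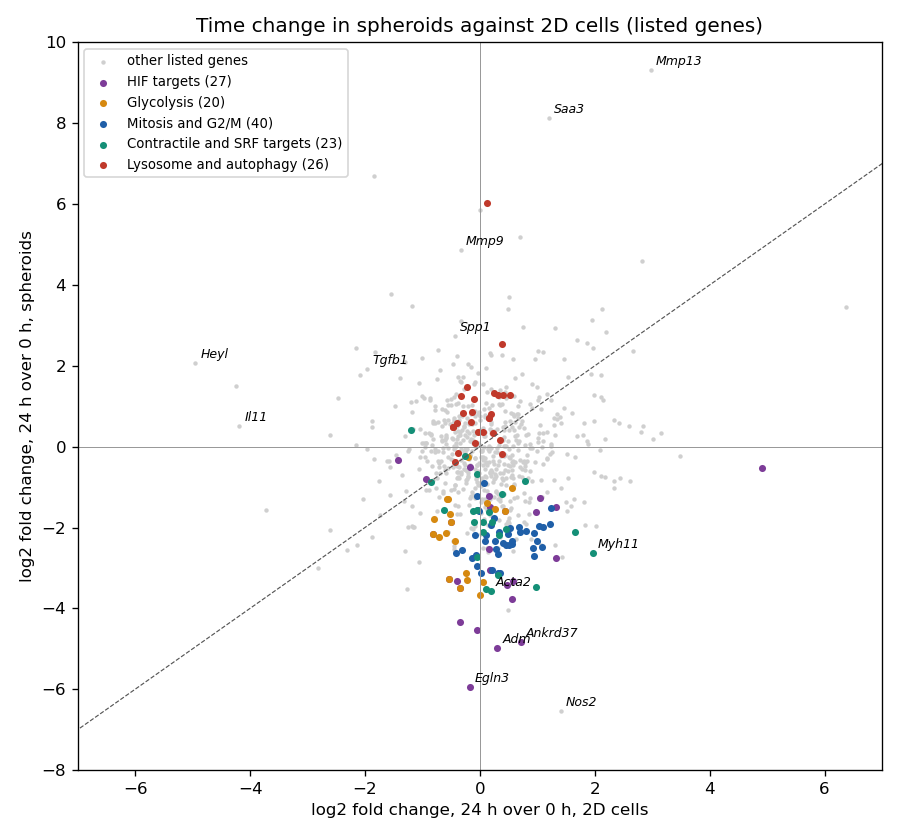
Change from 0 h to 24 h in spheroids (vertical axis) against that in 2D cells (horizontal axis), both as log2 fold change, for the named genes tested; each point is 1 gene, 5 lists are coloured, and the dashed line marks equal change. Most HIF, mitosis and contractile genes lie below the line with 2D changes near 0 or above, glycolysis genes lie below it mostly left of 0, and Heyl, at 2.08 in spheroids and -4.96 in 2D, lies far above it.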

How the data were processed

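The authors deposited RSEM expected counts per Ensembl gene ID and log2 values of TPM + 1 for the same 12 libraries. Per the submitters' processing notes, reads were checked with FastQC 0.11.9, aligned with STAR to GRCm39 and counted with RSEM; whether counting used strand is not given in the sources used here. Per the labels, RNA was amplified with a SMART-seq v4 kit before a TruSeq stranded library preparation, and no molecular identifiers are named, so counting intervals cover counting error only. Between 81.9 and 83.9% of the counts above 0 were whole numbers exactly as deposited (a tolerance of 0); the others split reads between similar genes.

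The expected counts were rounded and tested with edgeR 4.0.16 (R 4.3.3): TMM scaling, a minimum count of 10 in the expression filter, a quasi-likelihood fit over all 12 libraries with 1 term per group, and Benjamini-Hochberg adjustment over the 14338 genes tested. The scripts were tested on simulated counts. Alternatives used DESeq2 1.42.0, limma 3.58.1 on the deposited log2 TPM values, other scalings and filters, a replicate block and each library left out. No 2 spheroid libraries of the same group were duplicates by the chi-square of their counts, which was 4.69 to 29 per degree of freedom. The 2D libraries and pairs across groups were not compared in this way.

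Gene names do not come from the files, and no table used here pairs the IDs with symbols. The named-gene rule written at the outset allowed names only from such a table. The names given here depart from it: 831 symbol and ID pairs were recalled from general knowledge, and a wrong pair remains possible. The checks were partial: 830 IDs were in the table, 1 more was dropped because its length, estimated from counts and TPM, was over 1.25 times its RefSeq gene span, and 829 were used. Of 754 with an estimated length, 724 had at least 0.8 of the coding length, which was recalled too; both factors were set after a first look. Of all ID numbers in the range, 34.0% were in the table. Cell cycle marker IDs shipped with scran 1.30.0 included 34 of 40 mitosis IDs, 27 of 38 replication IDs and 36 of 751 others. Coordinates and promoters are from RefSeq (GRCm38.p6), matched by symbol and not converted.

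The members and lists were chosen with earlier results of these data known. The rule for single genes took the 12 highest and 12 lowest changes of called genes whose higher group averaged 10 CPM or more and whose libraries did not overlap between times, listed anchors and the 2 largest changes of each list, and the 5 highest and 5 lowest differences from 2D. Further genes, and the 8 further differences printed (Bnip3, Acta2, Plk1, Spp1, Ctsk, Tgfb1, Inhba and Il6), were chosen after their values were seen.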

Additional observations from a re-analysis of the deposited data

Results flagged for a closer look

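The time change differed between spheroids and 2D cells in 5610 genes by edgeR's test of the difference over all 12 libraries. The 18 named genes that follow are those for which the difference is printed, as the log2 change in spheroids minus that in 2D. Below 0 were Nos2 (-7.94), Egln3 (-5.77), Ankrd37 (-5.55), Adm (-5.28), Myh11 (-4.59), Bnip3 (-4.33), Acta2 (-3.75) and Plk1 (-3.15). Above 0 were Heyl (7.03), Saa3 (6.94), Mmp13 (6.34), Mmp9 (5.19), Il11 (4.70), Inhba (4.59), Il6 (4.16), Tgfb1 (3.88), Spp1 (3.17) and Ctsk (2.17). All 18 passed the adjusted threshold with 12 libraries, and Nos2 and Saa3 did not when 1 2D library was left out.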

How the results depend on the processing

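The counts of genes called in spheroids and for the difference from 2D stayed within 1.5 times under every alternative run. So did 14 leading list counts, each for 1 direction of a list. No called result of a single gene changed direction. Genes not called could cross 0, as Fn1 (-0.104 to 0.408) and Fgf2 (-0.601 to 0.237) did. Genes called in spheroids numbered 6954, against 7168 with DESeq2, 7043 with library totals alone, 6363 and 6157 with limma on log2(TPM + 1) and log2(TPM + 0.1), and 5938 to 6348 with 1 spheroid library left out. Calls for the difference numbered 5610, against 4291 with limma on unfiltered TPM, 6007 with DESeq2 and 4857 to 5870 with 1 library left out. Replicate numbers gave no sign of pairing in spheroids. The correlations of same-numbered deviations were -0.033, -0.04 and 0.02, against -0.023 to 0.056 for the other pairs, and 2D pairs were not checked. A fit with the replicate number as a block called 6523 and 5134 genes. On the TPM scale the median difference from 2D of all genes moved to -0.103 (limma, log2(TPM + 1)) and -0.137 (limma, log2(TPM + 0.1)). Of 323 gene results over 5257 settings, 5085 kept their call, 145 lost and 27 gained one, in 46 results. Limma on TPM alone, in at least 1 of its settings, ended the calls in spheroids of Adamts5, Cdkn1a, Notch2, Pdgfrb, Smad7, Timp3, Axin2 and Il11. The same held for Abcg1, Bcl2l11, Cdc6, Fbn1, Hyal1 and Klf4. The cause was not tested. Of the other list counts, which include the opposite direction of the leading lists, 26 of 76 moved by over 1.5 times under some setting. Those printed carry their range. Depth limits genes near 0 at one time, such as Mmp13 with 3 reads.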
